A study of Mus musculus with 6 samples.

Results

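The 42 genes described here encode enzymes and regulators of the glutathione and antioxidant defence of the cell. Their rows were taken by gene symbol, and the list was chosen with earlier results of these data known. All 42 were found among the 17554 coding genes of the deposited table. The RNA came from the corneal epithelial layer of C57BL/6 mice at 2 months of age, with 3 mice in the control group, labelled wild type, and 3 in the mutant group, labelled *Rela*-/-. The mutants were *Krt14-Cre; Rela* f/f mice, in which a recombinase driven by the keratin 14 promoter removes the floxed part of *Rela*, the gene of the RelA subunit of NF-κB. Deletion is therefore limited to cells in which that promoter has been active, and other cells of the layer keep the gene. The labels do not say whether the control mice carried a floxed or a Cre allele.

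Glutathione is a small peptide that reduces peroxides and that glutathione S-transferases join to reactive compounds, and thioredoxin does a parallel job on oxidised proteins. The transcription factor NRF2 is held back by its sensor KEAP1 until oxidants modify that sensor, and it then switches on many of these enzymes through antioxidant response elements in the DNA. The corneal epithelium is exposed to light and oxygen and is known for very high levels of a few soluble enzymes.

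*Rela* was measured first, as a check of the labels. Its FPKM, the fragments per length of transcript scaled to a common library size, was 36.5, 34.7 and 33.4 in control mice and 4.93, 5.53 and 5.72 in mutant mice. The log2 fold change was -2.75 (standard error, SE, 0.085), and every mutant sample lay below every control sample. Library totals were even, at 19492942 to 19733834 expected counts per sample, where 3 counts equal 0.152 to 0.154 CPM (counts scaled to a common total). Intervals and limits from counts cover counting error only. The corneal markers *Krt12*, *Krt5* and *Pax6* did not pass the test between the genotypes, and *Krt14* rose (log2 fold change 3.32, SE 0.18, adjusted p = 1.1e-05) while *Aldh3a1* fell (log2 fold change -0.25, adjusted p = 0.047). The summed FPKM of 8 immune markers was 20.9 to 28.9 in control mice and 255.8 to 1690.4 in mutant mice, highest in mutant 1. *S100a8* had 1, 0 and 2 counts in control mice and so passed the filter only through the mutant group. In the mutant samples most of that sum was *S100a8* and *S100a9*. *Cd68* made most of the control sum, at 21.4, 17.3 and 21.8 FPKM. It was at 24.5, 24.1 and 22.1 FPKM in mutant samples and was not called (adjusted p = 0.22). Without *S100a8*, *S100a9* and *Cd68* the sum was 0.16 to 0.35 FPKM in control and 0.46 to 1.56 FPKM in mutant samples. Of the 8 markers, 4 (*Ptprc*, *Adgre1*, *Csf1r* and *Cd3e*) were at or below 0.22 FPKM in every sample. The 6 keratocyte markers summed to 0.09 to 0.22 FPKM in control and 0.50 to 3.08 FPKM in mutant samples, without overlap and highest in mutant 1, and in mutant samples most of this was *Dcn*, with 3, 2 and 1 counts in control and 66, 34 and 14 counts in mutant samples. The 4 conjunctival and goblet cell markers summed to 1362.2 to 1594.6 FPKM in control and 1073.6 to 1191.1 FPKM in mutant samples, with 1 of the 3 tested called lower, and the 3 red blood cell markers in the table to 3.18 to 4.29 and 2.25 to 2.66 FPKM, with none called. Endothelial markers summed to at most 0.24 FPKM in any sample, and 0 of 3 tested pigment cell markers were called. The part of these shifts in the results that follow was not tested.

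The comparison asks which of these transcripts differ once RelA is lost from the epithelium. Of the 42 genes, 40 passed the filter on low counts and were tested, with *Slc7a11* and *Gpx3* left out. The test of genotype was the quasi-likelihood test of edgeR on expected counts, with p-values adjusted by Benjamini-Hochberg across 12667 genes, and a gene was called at an adjusted p under 0.05. The mutant epithelium had 8 of the 40 tested members higher (20%) and 9 lower (22.5%), and 23 were not called. Over all genes tested, 7.82% were called higher and 5.42% lower. *Gpx2* passed the filter only through the mutant samples, where it is high, so it had to differ; without it, 7 of 39 members were higher (17.9%) and 9 lower. The genes that rose were *Hmox1*, *Gpx2*, *Mt1*, *Mt2*, *Txn1*, *Prdx3*, *Gsr* and *Gss*, and those that fell were *Gsta3*, *Gstm1*, *Gstm2*, *Gsto1*, *Sod1*, *Sod2*, *Nqo1*, *Gpx4* and *Gclc*. The median log2 fold change of the 40 was -0.08, beside -0.0028 over all genes tested. In bulk RNA, fewer cells of a type and less RNA per cell cannot be told apart. At the stricter thresholds that the study set (fold change of 2 or more, adjusted p no higher than 0.001), 2 of the 40 members passed, *Mt1* and *Mt2*, and 1.37% of all genes tested did. Leaving out control 1 or control 2 lowered the members called higher to 5, and the members past the stricter thresholds were 1 without control 1 and 0 without control 2 or control 3.

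**Figure D1:**
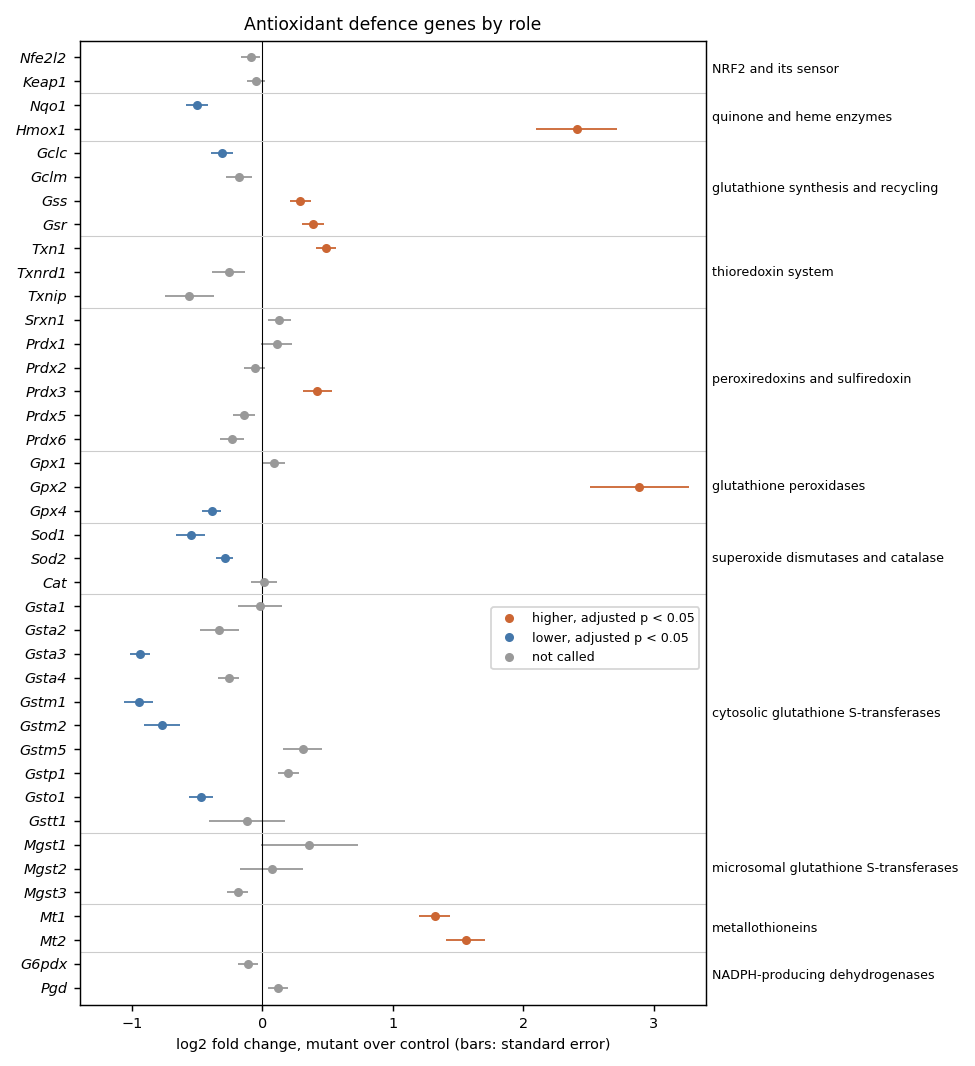
Log2 fold change, mutant over control, of the 40 tested members, grouped by role; points are edgeR estimates, bars are standard errors, and the vertical line marks no difference. The metallothioneins, *Hmox1* and *Gpx2* lie far to the right between 1.32 and 2.89, and the lowest points, near -0.95, are *Gsta3* and *Gstm1*.

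The FPKM values of the 3 control and the 3 mutant samples did not overlap for any of the 17 called members. The calls came from the same samples, so this adds no separate support to them. Counting all 40 tested members, 11 were higher and 13 lower without overlap, 24 in all, *Gpx2* among them, where 32.6% of all genes tested showed no overlap in either direction. Mutant 1 was the highest sample for 7 of the 8 genes that rose and the lowest for 3 of the 9 that fell. Without mutant 1, 7 members were called higher and 10 lower, with *Gss* lost and *Txnrd1* added.

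**Figure D2:**
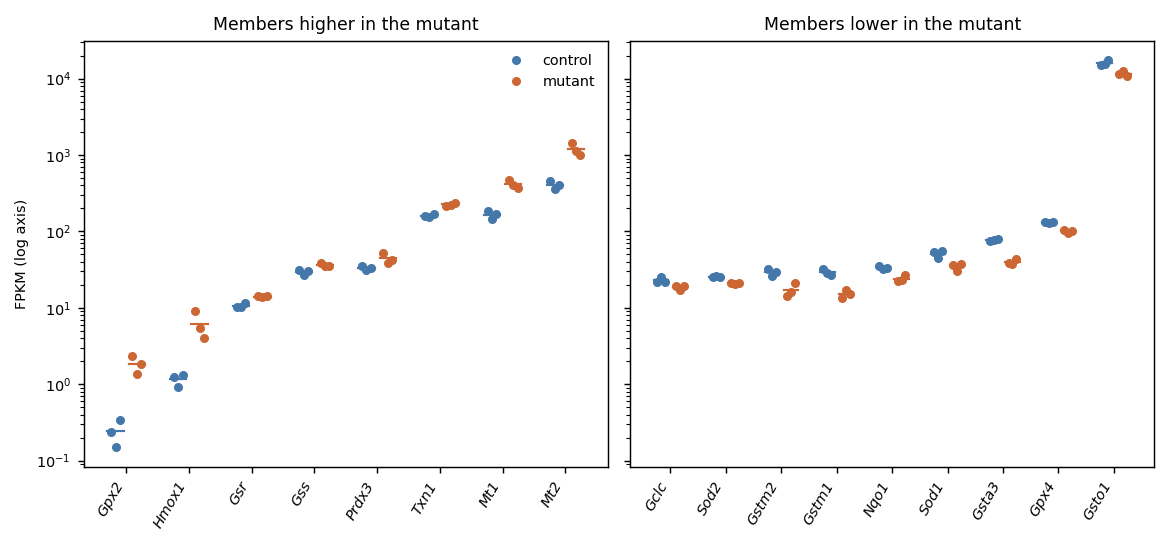
FPKM, on a log axis, of the 17 called members in each control (blue) and mutant (orange) sample, with samples 1 to 3 from left to right and a short line at the group mean. No orange point overlaps a blue point of the same gene, from *Gpx2* below 3 FPKM to *Gsto1* at 10872.7 FPKM and more.

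Neither transcript of the NRF2 and KEAP1 pair was called. *Nfe2l2*, the gene of NRF2 on chromosome 2, had an FPKM of 49.2, 45.1 and 44.1 in control and 41.1, 42.5 and 46.6 in mutant samples. Its log2 fold change was -0.09 (SE 0.075, adjusted p = 0.48), and the groups overlapped. *Keap1*, its sensor, was measured at 20.8, 19.7 and 19.7 against 19.2, 18.8 and 20 FPKM (log2 fold change -0.05, SE 0.069, adjusted p = 0.69). NRF2 activity is set mostly at the level of the protein, which these data do not measure.

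Of the quinone and heme enzymes, which are commonly used as readouts of NRF2, both were called and they moved in opposite directions. *Hmox1* (chr8:75093618-75100593 in GRCm38, the build of all coordinates in the table) encodes heme oxygenase 1, which breaks heme down to biliverdin, iron and carbon monoxide. Its FPKM was 1.23, 0.92 and 1.31 in control mice and 9.01, 5.39 and 4.05 in mutant mice. All 3 mutant samples were above the controls, with mutant 1 the highest. The log2 fold change was 2.41 (SE 0.31, adjusted p = 0.0011), and it was 2.02 without mutant 1 (adjusted p = 0.00032). Summed over mice, *Hmox1* had 106 counts in control and 565 in mutant mice, a ratio of 5.32 with an exact 95% interval of 4.32 to 6.61 for counting error. *Nqo1* (chr8:107384753-107403251) encodes a quinone reductase. It went from 35.8, 32.2 and 33.6 FPKM in control to 22.3, 23.0 and 26.7 FPKM in mutant samples, so every mutant sample was below every control. Its log2 fold change was -0.50 (SE 0.086, adjusted p = 0.005), and the call held in each of the 6 fits that left out 1 sample.

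The genes of glutathione synthesis and recycling showed small differences in both directions. Glutamate-cysteine ligase makes the first and limiting bond of glutathione with a catalytic and a modifier subunit. *Gclc*, the catalytic subunit, had 22.0, 25.2 and 22.1 FPKM in control and 19.4, 16.9 and 19.3 FPKM in mutant samples. It was called lower at a log2 fold change of -0.31 (SE 0.088, adjusted p = 0.046). It was kept without mutant 1 (adjusted p = 0.033) and lost without any single control sample, without mutant 2 and without mutant 3, where the log2 fold change was between -0.36 and -0.25 and the adjusted p reached 0.16. *Gclm*, the modifier subunit, read 8.70, 9.40 and 9.0 against 8.35, 7.17 and 8.52 FPKM (log2 fold change -0.18, adjusted p = 0.27).

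*Gss*, the synthetase of the second step, rose from 31.6, 27.2 and 30.6 to 38.4, 35.6 and 35.7 FPKM. Its log2 fold change was 0.29 (SE 0.082, adjusted p = 0.043), and none of the 6 fits with 1 sample left out called it, at 0.23 to 0.33 and an adjusted p of up to 0.15. Exons of other genes overlap 15.4% of its exon bases. *Gsr*, the reductase that returns oxidised glutathione to its working form with NADPH, rose from 10.3, 10.3 and 11.5 to 14.1, 13.9 and 14.1 FPKM. The mutant samples were nearly equal, and the log2 fold change was 0.39 (SE 0.083, adjusted p = 0.014); without control 1 or control 2 it was 0.35, with an adjusted p of up to 0.063. *Slc7a11*, the cystine transporter, was at most 0.12 FPKM in any sample and was not tested.

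Of the 3 genes of the thioredoxin system, thioredoxin itself rose. *Txn1* (chr4:57943373-57956411), the reductant of protein disulfides, had 159.8, 153.5 and 168.9 FPKM in control and 217.4, 224.6 and 239.2 FPKM in mutant samples, all of the latter higher. Its log2 fold change was 0.49 (SE 0.076, adjusted p = 0.0027), with 0.45 to 0.54 over the fits that left out 1 sample. *Txnrd1*, the reductase that recharges thioredoxin, was at 19.3, 18.7 and 19.5 FPKM in control and 19.5, 14.6 and 13.8 FPKM in mutant samples. Mutant 1 lay at the control level and the other mutant samples below it, so the log2 fold change was -0.26 (adjusted p = 0.21) with all samples and -0.44 (adjusted p = 0.0053) without mutant 1. *Txnip*, which binds and inhibits thioredoxin, varied widely between mice, at 174.4, 214.2 and 129.9 FPKM in control and 90.0, 116.2 and 146.7 FPKM in mutant samples. Its groups overlapped, with a log2 fold change of -0.56 (SE 0.19, adjusted p = 0.086). It was -0.73 (adjusted p = 0.036) without mutant 3, and 19.4% of its exon bases overlap *Gm15441*.

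Peroxiredoxins destroy peroxides with a cysteine that thioredoxin then reduces, and 1 of the 6 genes of that group was called. *Prdx3*, the mitochondrial member, rose from 35.3, 31.6 and 33.5 to 52.8, 39.0 and 42.9 FPKM, highest in mutant 1. The log2 fold change was 0.42 (SE 0.11, adjusted p = 0.039). Without control 1, 2 or 3 it was 0.45, 0.37 and 0.44 and did not pass, with an adjusted p of 0.081, 0.15 and 0.1. Without mutant 1 it was 0.28 (adjusted p = 0.044).

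The most abundant peroxiredoxins were not called. *Prdx5* had 499.1, 504.0 and 549.8 FPKM in control and 496.7, 466.3 and 448.7 FPKM in mutant samples, and *Prdx6*, which also has a phospholipase activity, had 322.8, 295.2 and 272.2 against 225.2, 257.6 and 278.9 FPKM. Their log2 fold changes were -0.14 (adjusted p = 0.3) and -0.23 (adjusted p = 0.14). *Prdx1* and *Prdx2* had log2 fold changes of 0.11 and -0.06, and *Srxn1*, the sulfiredoxin that repairs overoxidised peroxiredoxins, one of 0.13. Summed over the 5 peroxiredoxins, the FPKM was 1050.3 to 1089.2 in control and 970.5 to 1046.4 in mutant samples.

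Of the glutathione peroxidases, *Gpx4* fell. *Gpx2* (chr12:76792335-76795554), best known from the gut epithelium, had 0.24, 0.15 and 0.34 FPKM in control and 2.35, 1.37 and 1.84 FPKM in mutant samples. It passed the filter only through the mutant samples, which all lay above the controls: 15 counts were found in the control group and 114 in the mutant group, a ratio of 7.59 with an exact 95% interval of 4.41 to 14.0. The fitted log2 fold change was 2.89 (SE 0.38), with no weight given to its call, since the filter chose it through the group where it is high. *Gpx4* (chr10:80047166-80056439), which reduces lipid peroxides in membranes, fell from 132.3, 128.1 and 134.1 to 103.5, 96.8 and 100.7 FPKM. Its samples were tight within each genotype, and the log2 fold change was -0.39 (SE 0.071, adjusted p = 0.0062). Its value is uncertain in that 34.7% of the 50-base windows of its transcripts also occur in other genes, mainly the pseudogene *Gpx4-ps2*. *Gpx1*, the highest of the 4 by mean FPKM in both genotypes, had 149.5, 144.1 and 150.8 against 146.4, 149.6 and 177.6 FPKM (log2 fold change 0.09, adjusted p = 0.55). *Gpx3*, the secreted form, was at most 0.27 FPKM in any sample and was not tested.

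Both superoxide dismutases fell and catalase was not called. *Sod1* (chr16:90220742-90226324), the copper and zinc enzyme of the cytosol, had 53.2, 44.7 and 55.4 FPKM in control and 36.0, 30.7 and 37.9 FPKM in mutant samples. The log2 fold change was -0.55 (SE 0.11, adjusted p = 0.012), and -0.48 with an adjusted p of 0.054 without control 3. *Sod2*, the manganese enzyme of mitochondria and widely studied as a target of NF-κB, fell from 25.4, 25.8 and 25.2 to 21.4, 20.4 and 20.9 FPKM. All mutant samples were below all controls, with a log2 fold change of -0.29 (SE 0.067, adjusted p = 0.022). Its call was lost when any control, mutant 2 or mutant 3 was left out, with values between -0.30 and -0.27 and an adjusted p of up to 0.08, and 21.0% of its 50-base windows also occur in other genes. *Cat*, which breaks down hydrogen peroxide in peroxisomes, had 17.6, 16.0 and 13.6 against 14.1, 16.9 and 16.8 FPKM (log2 fold change 0.01, SE 0.10).

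The cytosolic glutathione S-transferases held the most abundant member and the steepest falls. Of the 10 genes, 4 fell, 0 rose and 6 were not called, with a median log2 fold change of -0.30, beside 5.42% lower and 7.82% higher over all genes tested. *Gsto1* (chr19:47854973-47864790), the omega-class enzyme that reduces dehydroascorbate, had the highest FPKM of all members and was the gene with rank 2 of the whole table in the control mean. Its FPKM was 15081.5, 15709.2 and 17513.4 in control and 11518.2, 12489.1 and 10872.7 in mutant samples, so every mutant sample was lower. The log2 fold change was -0.47 (SE 0.093, adjusted p = 0.0095), and with limma on FPKM values the direction held but the adjusted p was up to 0.12. *Gsta4*, the alpha-class enzyme that clears lipid-derived aldehydes, ranked 5 in the table at 5102.8, 4627.5 and 5388.0 FPKM in control and 4004.8, 4345.6 and 4264.8 FPKM in mutant samples. The groups did not overlap, but its log2 fold change of -0.26 (SE 0.084) had an adjusted p of 0.069; DESeq2 gave 0.021.

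*Gsto1* and *Gsta4* held most of the counts of these genes. The 42 members together took 2.78% ± 0.16 (SD, n = 3) of the counts in control and 2.2% ± 0.09 (SD, n = 3) in mutant samples, without overlap. The list was chosen with earlier results known, so its sums are given as a description only. *Gsto1* alone took 1.87% ± 0.15 and 1.35% ± 0.09. The other 40 members took 0.442% ± 0.015 and 0.460% ± 0.009, with overlapping samples.

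**Figure D3:**
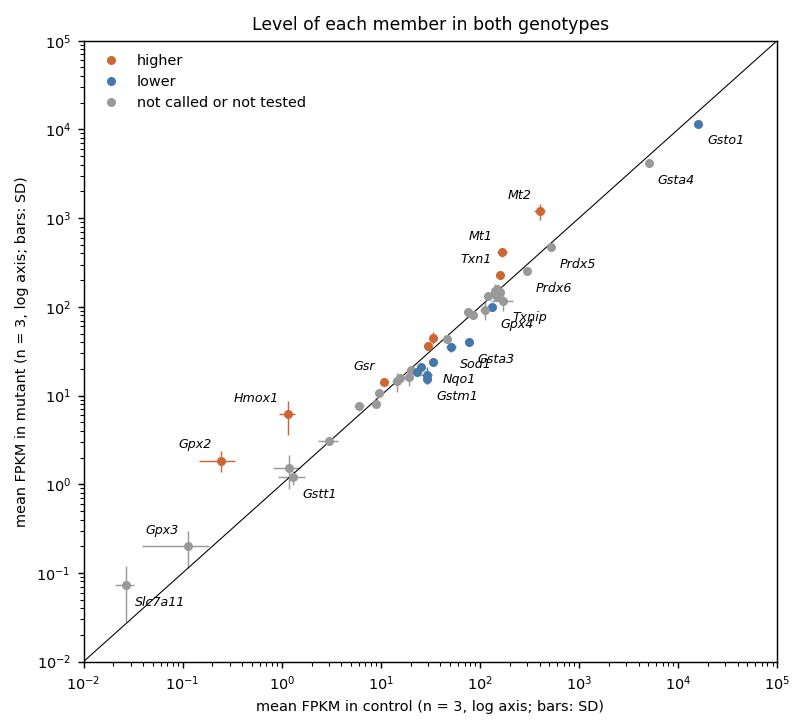
Mean FPKM of each of the 42 members in mutant (vertical) against control (horizontal) mice, n = 3 each, on log axes, with SD bars and a line of equal level. *Gsto1* and *Gsta4* stand apart at the top and lie under the line, the metallothioneins, *Hmox1* and *Gpx2* lie clearly above it, and most members between 1 and 500 FPKM follow the line.

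*Gsta3* (chr1:21240585-21265575), an alpha-class enzyme that conjugates glutathione to aldehydes and other electrophiles, fell from 74.0, 78.0 and 78.7 to 39.0, 37.8 and 43.8 FPKM. The groups were far apart relative to their spread, with a log2 fold change of -0.94 (SE 0.079, adjusted p = 0.0001) and a range of -0.99 to -0.90 when 1 sample was left out. *Gstm1* (chr3:108012250-108017973), of the mu class, fell from 32.5, 28.6 and 27.0 to 13.3, 17 and 15.4 FPKM (log2 fold change -0.95, SE 0.11, adjusted p = 0.00052). Its neighbour *Gstm2* (chr3:107981702-107986436) fell from 32.7, 25.8 and 29.1 to 14.3, 15.9 and 21.2 FPKM (log2 fold change -0.77, SE 0.14, adjusted p = 0.0072). Both are uncertain as single genes, because 18.9% of the 50-base windows of *Gstm1* and 5.65% of those of *Gstm2* also occur in other genes. Summed over the 6 mu-class genes in the table, the counts were 1732, 1461 and 1520 in control and 900, 1013 and 1094 in mutant mice, and the sum fell by 0.65 on the log2 scale (SE 0.091, adjusted p = 0.0016). *Gstm5* of the same cluster had a log2 fold change of 0.31 and was not called (adjusted p = 0.21).

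*Gsta1* and *Gsta2*, a pair of near-identical alpha-class genes, could hardly be separated by 50-base reads, since 90.5% and 49.8% of their windows occur in other genes. Their counts summed to 2417, 1981 and 2150 in control and 1323, 1994 and 2069 in mutant mice. Mutant 1 was low and the other samples overlapped, so the sum had a log2 fold change of -0.29 (SE 0.15, adjusted p = 0.24). *Gstp1*, the pi-class enzyme, shares 33.7% of its windows with other genes, mainly *Gstp2*, and went from 83.4, 71.0 and 73.6 to 83.7, 89.4 and 89.5 FPKM (log2 fold change 0.20, adjusted p = 0.14). With its copies summed the value was 0.19 (adjusted p = 0.15). *Gstt1*, of the theta class, stayed between 0.96 and 1.75 FPKM. The microsomal enzymes, which sit in membranes, were not called: *Mgst3* was at 148.9 ± 12.3 FPKM in control and 130.6 ± 1.1 FPKM in mutant samples (SD, n = 3), while *Mgst1* and *Mgst2* stayed at or below 3.75 FPKM in every sample.

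The metallothioneins, small cysteine-rich proteins that bind zinc and copper and scavenge radicals, rose together. *Mt1* (chr8:94179084-94184982) had 185.9, 147.4 and 166.7 FPKM in control and 469.5, 404.8 and 374.4 FPKM in mutant samples. Its log2 fold change was 1.32 (SE 0.12, adjusted p = 0.00013). *Mt2* (chr8:94172618-94173567), its neighbour upstream, had 456.4, 355.2 and 405.9 FPKM in control and 1449.1, 1138.5 and 997.6 FPKM in mutant samples. Its log2 fold change was 1.56 (SE 0.15, adjusted p = 0.0002), and 73.5% of its exon bases overlap *Gm45774* on the other strand, with no stated strand for the counting. The lowest mutant sample had 2.01 times the FPKM of the highest control sample for *Mt1* and 2.19 times for *Mt2*. Without mutant 1 the log2 fold changes were 1.22 and 1.39, and both calls held. The ratio of *Mt2* to *Mt1* FPKM was 2.41 to 2.46 in control and 2.66 to 3.09 in mutant samples.

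Since this pair moved together and passed the stricter thresholds, the 250 bases before their start sites are shown, from RefSeq on GRCm38.p6, read 5′ to 3′ on the plus strand, which both genes use. Capitals mark each match, on either strand, to TGCNCNC. This is a loose form of the core of the metal response element, with any base at N. Some matches may therefore not be the core itself. The window of *Mt2* (chr8:94172368-94172617) has 5 matches and that of *Mt1* (chr8:94178839-94179088) has 1:
Mt2: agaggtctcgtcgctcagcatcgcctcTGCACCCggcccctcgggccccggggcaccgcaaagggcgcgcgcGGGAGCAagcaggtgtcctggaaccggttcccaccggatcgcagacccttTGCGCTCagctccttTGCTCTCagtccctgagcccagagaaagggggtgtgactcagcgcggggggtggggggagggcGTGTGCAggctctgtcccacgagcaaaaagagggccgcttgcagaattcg
Mt1: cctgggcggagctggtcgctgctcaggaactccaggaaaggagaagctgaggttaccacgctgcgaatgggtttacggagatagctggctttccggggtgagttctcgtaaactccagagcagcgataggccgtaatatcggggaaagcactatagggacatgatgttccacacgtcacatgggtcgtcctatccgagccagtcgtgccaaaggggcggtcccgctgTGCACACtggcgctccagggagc
The same letters occur in 44.4% of the 32851 promoters of that length in the RefSeq table, and 1.28% of them have at least 4 matches.

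Promoters were found for 37 of the 42 members. None was found for *Hmox1*, *Gclc*, *Gsr*, *Prdx6* and *Gsta4*, so these were not searched. The core of the antioxidant response element, TGACNNNGC on either strand, was found before 10 of the 37. Some members have several start sites, and counted by promoter it was in 10 of their 45 windows (22.2%) and in 10.2% of all promoters. Of those 10, 1 belongs to a gene that rose (*Mt2*), out of 6 such genes with a promoter. Another 2 belong to genes that fell (*Gsta3* and *Sod1*), out of 8, and 7 to genes not called, out of 21. The genes not called include *Nfe2l2*, *Gclm*, *Prdx1*, *G6pdx* and *Txnrd1*. The match of *Mt2* overlaps one to TGANTCA, the letters of AP-1, at the same place. The windows of the members that fell are shown because they carry the letters of the element that NRF2 binds, again in capitals, both on the plus strand, chr1:21240335-21240584 for *Gsta3* and chr16:90220512-90220761 for *Sod1*:
Gsta3: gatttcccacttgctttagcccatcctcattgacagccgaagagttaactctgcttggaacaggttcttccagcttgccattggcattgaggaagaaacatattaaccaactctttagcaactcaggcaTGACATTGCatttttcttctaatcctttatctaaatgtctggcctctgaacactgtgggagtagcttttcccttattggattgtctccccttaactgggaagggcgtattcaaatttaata
Sod1: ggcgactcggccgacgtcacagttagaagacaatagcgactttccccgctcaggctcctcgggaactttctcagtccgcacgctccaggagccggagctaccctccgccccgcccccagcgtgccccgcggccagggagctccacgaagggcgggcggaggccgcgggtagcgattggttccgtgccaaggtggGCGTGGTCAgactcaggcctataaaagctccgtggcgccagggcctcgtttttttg
A strict form of the κB motif was in the window of none of the 37 members and in 0.356% of all promoters. At so low a rate, 45 windows are too few for its absence to say anything of these genes. Looser forms of the motif and sites outside the 250 bases were not searched, so whether these genes have κB sites was not tested. All the motif matches given here are of letters only, and no binding was measured.

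The dehydrogenases that supply NADPH to both reductases were not called. *G6pdx*, the first enzyme of the pentose phosphate pathway, had an FPKM of 160.0 ± 7.9 in control and 148.0 ± 5.9 in mutant samples (SD, n = 3), with a log2 fold change of -0.11 (adjusted p = 0.35). *Pgd*, which makes the second NADPH of that pathway, had 121.1 ± 5.3 and 131.1 ± 5.3 FPKM (log2 fold change 0.12, adjusted p = 0.33). Of the 23 tested members not called, 19 had a log2 fold change within 0.3 of no difference, and the range was -0.56 to 0.36.

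Outside the 42 members, 91 of 107 other genes of the same pathways were tested, of which 9 rose (9.89%) and 8 fell (8.79%), with a median log2 fold change of -0.04. These shares are near the 7.82% and 5.42% of all genes tested, so the counts say nothing particular of these pathways, and the genes called are given one by one. The number called lower dropped to 5 without control 2, 3 without control 3 and 4 without mutant 2. The NRF2 list had 3 of 26 higher (11.5%) and 2 lower (7.69%), also near those shares. *Akr1b8*, an aldo-keto reductase, rose from 4.41, 2.13 and 5.32 to 65.6, 50.9 and 47.9 FPKM, a log2 fold change of 3.79 (SE 0.26, adjusted p = 3e-05). Its relative *Akr1b3*, the aldose reductase, rose from 225.8, 214.5 and 240.0 to 440.1, 323.2 and 334.1 FPKM (log2 fold change 0.69, adjusted p = 0.006), and *Ftl1*, the ferritin light chain, rose by 0.30 on that scale (adjusted p = 0.042). *Rbx1*, a subunit of the ligase that marks NRF2 for degradation, and the quinone reductase *Nqo2* fell, with log2 fold changes of -0.30 and -0.34.

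Genes that handle metals or make oxidants were also called. Of 5 tested metal handling genes, 2 rose and none fell, beside 7.82% and 5.42% of all genes tested. The zinc importer *Slc39a10* had a log2 fold change of 0.93 (SE 0.089, adjusted p = 0.00022). The transferrin receptor gene *Tfrc* had one of 0.98 (SE 0.14, adjusted p = 0.0019). *Mtf1*, *Slc30a1* and *Slc39a14* were not called, with log2 fold changes of -0.01, -0.17 and 0.15. Of 8 tested sources of superoxide and peroxide, *Xdh*, the gene of xanthine oxidoreductase, rose from 25, 21.0 and 25.4 to 56.1, 44.6 and 42.6 FPKM (log2 fold change 0.96, adjusted p = 0.00076). The dual oxidase *Duox2* fell from 2.65, 2.38 and 2.50 to 1.21, 1.05 and 0.73 FPKM (log2 fold change -1.33, adjusted p = 0.0011). Its maturation factor *Duoxa2* fell by 1.34 on the log2 scale, with 34, 27 and 33 counts in control and 16, 12 and 9 in mutant samples. Only the control group, where *Duoxa2* is high, reached the minimum count of 10 in every sample. No weight is given to its call, which is counted among the pathway genes that fell.

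In the remaining lists few genes were called. Among 18 other glutathione genes, *Glo1*, which detoxifies methylglyoxal, rose by 0.41 and *Glrx5*, a mitochondrial glutaredoxin, fell by 0.45 on the log2 scale. Among 11 other glutathione S-transferases, *Gstt3* and *Gstz1* fell by 0.39 and 0.30 and none rose. Of the sestrins, which respond to stress, *Sesn1* fell from 28.8, 36.1 and 32.5 to 15.6, 16.9 and 16.6 FPKM (log2 fold change -1.0, adjusted p = 0.00027) while *Sesn2* rose from 4.01, 4.53 and 4.38 to 6.39, 6.14 and 7.76 FPKM (log2 fold change 0.65, adjusted p = 0.0057). The mitochondrial malic enzyme *Me2* was the only one of 11 other NADPH genes called, at 0.80 (adjusted p = 0.0043). The calls of *Glo1*, *Glrx5*, *Gstz1*, *Rbx1*, *Ftl1*, *Nqo2* and *Duoxa2* were each lost in at least 3 of the 6 fits that left out 1 sample, and the call of *Gstz1* in all of them.

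**Figure D4:**
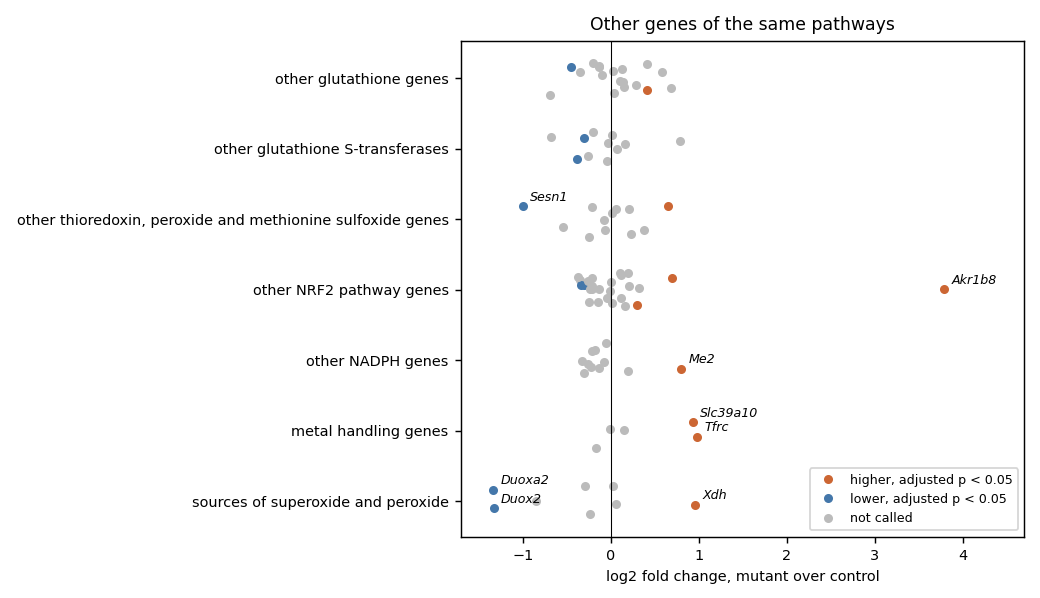
Log2 fold change, mutant over control, of the 91 other tested pathway genes, 1 point per gene, in 7 lists (rows; vertical scatter within a row has no meaning). Most points lie within 0.5 of the line of no difference, and the called genes that reach beyond 0.75 are named, with *Akr1b8* at 3.79.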

How the data were processed

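Per the labels and the study's methods, total RNA of the separated corneal epithelium of 3 mice per genotype was depleted of rRNA, read as single-end 50-base reads, aligned with Bowtie2 2.2.5 and quantified with RSEM 1.2.12; the labels name another library kit. The authors deposited expected counts, which are not normalized, and FPKM values, scaled by RSEM for the length of the transcript and the depth of the sample. Submitters' notes name mm9, but the table's coordinates are those of GRCm38. Columns of the authors' own fold changes and p-values were not used.

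Expected counts were rounded and fitted in edgeR 4.0.16 (R 4.3.3) with TMM scaling, filterByExpr (minimum count 10, minimum total 15) and the quasi-likelihood test. Standard errors were obtained by dividing the absolute log2 fold change by the root of the F statistic. Shared 50-base windows and exon overlaps were counted in GENCODE transcripts of GRCm38. Alternatives were DESeq2 1.42.0, limma 3.58.1 on log2(FPKM + 1) and log2(FPKM + 0.1), other scalings and filters, summed copies, a replicate block and each sample left out. The members, lists and rule for named genes (called members in every sample, others by level and counts, called pathway genes up to 4 per list and direction) were chosen with earlier results of these data known. The tested metal handling genes that were not called are named as well. On simulated data of 12667 genes with this design, edgeR called 46.3% of genes changed 1.5-fold and 92.5% of those changed 2-fold. In that simulation 12467 genes were unchanged, while 1678 genes were called in the real data. The rates may therefore differ for these data.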

Additional observations from a re-analysis of the deposited data

How the results depend on the processing

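All 17 called members kept their direction under every alternative that gave a value. Of the 17, 10 kept their call under all of them, counting *Gpx2*, to whose call no weight is given. The others were *Gclc*, *Gss*, *Gsr*, *Prdx3*, *Sod1*, *Sod2* and *Gsto1*. With 1 sample left out, members called higher numbered 5 to 7 (5 without control 1 or control 2), members called lower 6 to 10, members past the study's thresholds 0 to 3 (1 without control 1, 0 without control 2 or control 3), other pathway genes called higher 7 to 9 and other pathway genes called lower 3 to 11 (5 without control 2, 3 without control 3, 4 without mutant 2); each such fit has fewer samples. The median log2 fold change of the tested members was then -0.11 to -0.04. Members past the study's thresholds were 4 with DESeq2, 4 with no filter and 4 with limma on log2(FPKM + 0.1), where *Hmox1* and *Gpx2* passed too; the cause was not tested. The replicate numbers gave no sign of pairing: deviations of same-numbered samples correlated at 0.019, 0.048 and -0.046. With 3 samples per group this cannot show that pairing was absent. With the replicate block, 7 members were called higher and 7 lower, 3 passed the study's thresholds, and 9 other pathway genes were called higher and 7 lower. Genes near the filter, such as *Gpx2* with 3 to 7 counts per control sample, are limited by depth: with at least 10 counts required in every sample it gave no value.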
